A study of Mus musculus with 6 samples.

Results

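The circadian clock genes Per1, Per2, Per3, Cry1, Cry2, Arntl, Clock, Npas2, Nr1d1 and Dbp were examined in the forebrain RNA of mice exposed to acute water avoidance stress (WAS) and of control mice. They were taken by gene symbol. All 10 were found among the 23282 entries of the count files, and all 10 were among the 15239 entries abundant enough to be tested. The 6 mice were adult C57BL/6J males. The stress of the 3 WAS mice was 1 h on a small platform ringed by water, and the 3 control mice spent that time on such a platform in a dry box. The brains were taken without delay. The forebrain, without olfactory bulb and cerebellum, was divided into hemispheres for RNA sequencing and metabolomics, and there was 1 library per mouse. Which hemisphere gave the RNA is not stated in the sources used here. The clock time of the procedure is not given in the sources used here. The count columns were headed WC in the libraries labelled WAS and WS in those labelled control, and the sources used here do not explain these headings. Groups follow the sample labels, and every direction given for the libraries labelled WAS would turn around if the labels had been exchanged.

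The mammalian clock is a loop of transcription factors that runs in nearly every cell. BMAL1, encoded by Arntl, binds E-box DNA together with CLOCK or with its forebrain relative NPAS2 and switches on the Per and Cry genes, whose proteins return to the nucleus and block that activation. The same E-box drive turns on Nr1d1, whose product REV-ERBα represses Arntl through the RORE element, and Dbp, whose product activates genes with a D-box, among them members of the Per family. Per1 is also known as a gene that neuronal activity, cAMP signalling and glucocorticoids can induce rapidly, apart from its cycle.

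The elements of this loop were looked up in the promoters, because the members differ in which of them they carry. RefSeq promoters of the GRCm38.p6 build, reaching from 250 bases before to 50 bases after a transcription start, were found for 9 of the 10 members, 13 promoters in all, and none was found for Per2. The letters searched on both strands were CACGTG for the E-box, CACGTT for the related E′-box, TTANGTAA for the D-box, ANTNGGTCA for the RORE and TGACGTCA for the cAMP response element. No match overlapped another. Of all 32851 promoters of this length, 7.15% held the E-box letters, 4.68% the E′-box, 2.32% the D-box, 2.24% the RORE and 1.79% the cAMP response element. Matches were present in the 6 members shown here, with the matched letters in capitals and each sequence read 5′ to 3′ along its gene from 250 bases before the transcription start to the last base before it, or to the base at -11 in Cry1 and -2 in Per1. For Arntl only the site itself is shown, since it lies downstream of the start.
Per1 (chr11:69098699-69098947, plus strand): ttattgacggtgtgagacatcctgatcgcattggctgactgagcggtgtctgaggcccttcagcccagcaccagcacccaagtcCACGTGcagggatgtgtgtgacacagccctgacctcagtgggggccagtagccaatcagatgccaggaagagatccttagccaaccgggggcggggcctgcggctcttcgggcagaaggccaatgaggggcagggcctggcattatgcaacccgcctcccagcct
Per3 (chr4:151044666-151044915, minus strand): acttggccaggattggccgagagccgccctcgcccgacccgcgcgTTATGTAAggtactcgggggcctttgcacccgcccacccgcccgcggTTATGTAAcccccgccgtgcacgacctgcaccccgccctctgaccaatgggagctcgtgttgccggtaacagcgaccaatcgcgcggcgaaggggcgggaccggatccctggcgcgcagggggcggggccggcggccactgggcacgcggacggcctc
Cry1 (chr10:85185065-85185304, minus strand): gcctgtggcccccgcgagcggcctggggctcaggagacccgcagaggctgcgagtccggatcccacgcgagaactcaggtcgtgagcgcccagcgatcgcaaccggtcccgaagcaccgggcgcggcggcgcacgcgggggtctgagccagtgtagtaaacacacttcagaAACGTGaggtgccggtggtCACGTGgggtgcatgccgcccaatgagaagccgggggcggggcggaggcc
Cry2 (chr2:92434070-92434319, minus strand): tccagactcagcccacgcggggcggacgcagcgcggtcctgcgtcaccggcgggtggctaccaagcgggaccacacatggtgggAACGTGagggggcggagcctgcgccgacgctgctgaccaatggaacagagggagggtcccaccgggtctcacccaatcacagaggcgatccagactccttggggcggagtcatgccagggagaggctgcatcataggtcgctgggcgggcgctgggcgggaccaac
Nr1d1 (chr11:98775378-98775627, minus strand): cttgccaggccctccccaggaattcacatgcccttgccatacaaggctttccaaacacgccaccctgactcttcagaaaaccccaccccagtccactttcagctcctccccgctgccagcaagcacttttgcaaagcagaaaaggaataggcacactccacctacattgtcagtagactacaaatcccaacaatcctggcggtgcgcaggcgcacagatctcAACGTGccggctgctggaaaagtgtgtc
Arntl (chr7:113207529-113207557, plus strand): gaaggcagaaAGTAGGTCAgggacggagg
Counted from the transcription start to the first base of the match, the E-box of Per1 lay at -166 and that of Cry1 at -60, with an E′-box of Cry1 at -79. Cry2 had an E′-box at -166 and Nr1d1 at -28. Per3 carried a pair of D-boxes at -205 and -158, and the RORE of Arntl began at position 29 of the later of its listed starts. In these windows Clock, Npas2 and Dbp had none of the elements and no member had the cAMP response element, which says nothing of sites elsewhere in the genes.

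The libraries held between 9248520 and 10502029 counts, and values are given as CPM, counts per 1000000 counts of the library. Because QuantSeq reads only the end of each polyadenylated transcript, levels of different genes are not ranked as a result here. Level was used only to filter genes and to choose which to name. The libraries were not alike in the levels of marker genes of brain regions. Summed over 5 striatal marker genes (Drd1, Drd2, Ppp1r1b, Adora2a and Rgs9, of which Drd2 was close to 0 in every library), WAS replicates 1, 2 and 3 had 83.7, 1086 and 197 CPM, against 530.0, 681 and 763 CPM in the control libraries. Summed over 5 thalamic marker genes, WAS replicates 1 and 3 had 678 and 579 CPM, and the other 4 libraries lay between 275.7 and 290.8 CPM. The 4 midbrain markers, Slc6a3 and Th among them, summed to 18.9 and 34.9 CPM in WAS replicates 1 and 3 and to 2.48 to 4.97 CPM in the others. WAS replicates 1 and 3 thus stood apart from the rest on these 3 lists. The summed markers of neurons and of cortex differed in level between the groups, with no test of the sums. The 4 neuronal markers summed to 4089 to 4678 CPM in WAS and 4781 to 5352 CPM in control, and the 4 cortical markers to 176 to 208 CPM in WAS and 214 to 269 CPM in control, without overlap. Of all single genes tested, 3.76% had every WAS library below every control library. At an unadjusted p under 0.05, 2 of the 4 neuronal markers were lower in WAS (Syt1 and Rbfox3), where 3.4% of all genes were. Of these markers, 0 passed the adjusted threshold. The members of both lists were not alike, and the neuronal marker Tubb3 and the cortical marker Fezf2 had log2 fold changes of -0.012 and -0.048. Their part in the values of the clock genes was not tested. In bulk tissue, fewer cells of a kind and less RNA per cell cannot be told apart. The 5 choroid plexus markers were at 41.6 CPM in WAS replicate 1 and 15.8 CPM in control replicate 2, against 914 to 1234 CPM elsewhere. Markers of the suprachiasmatic nucleus, the seat of the master clock, were uneven: the defining markers Nms, Nmu and Six6 reached at most 0.301 CPM in any library, while Vip and Rgs16, which other brain regions also express, were at 17.4 to 24.5 and 5.84 to 15.9 CPM. Prok2 and Avp had their highest levels in WAS replicate 2, at 2.49 and 2.81 CPM, and control replicate 3, at 2.41 and 1.70 CPM, against at most 0.397 and 0.596 CPM elsewhere, and the 7 markers together gave 28.1 to 35.5 CPM.

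None of the 10 clock genes differed between the libraries labelled WAS and control beyond the spread between mice. In the quasi-likelihood test of edgeR, with p-values adjusted after Benjamini and Hochberg, 0 of 10 members were called at 0.05, beside 0 of all genes tested (0%). At an unadjusted p under 0.05, 0 of 10 members passed, where 7.24% of all genes did, and 0 met the study's fold change of at least 1.5 together with that p, where 2.49% did. The adjusted p of the members ran from 0.686 for Cry1 to 0.998 for Per1. All 10 log2 fold changes of the fitted model were below 0, against 49.8% of all genes, with a median of -0.16 over the members and 0.00088 over all genes tested. With scaling to the library total in place of TMM, 7 of 10 were below 0, and Per1, Cry2 and Clock were at 0.033, 0.012 and 0.026. The intervals still left room for moderate changes: over the 10 genes, the 95% intervals of the fold change reached down to between 0.653 (Dbp) and 0.868 (Clock) and up to between 1.00 (Cry1) and 1.32 (Arntl).

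**Figure D1:**
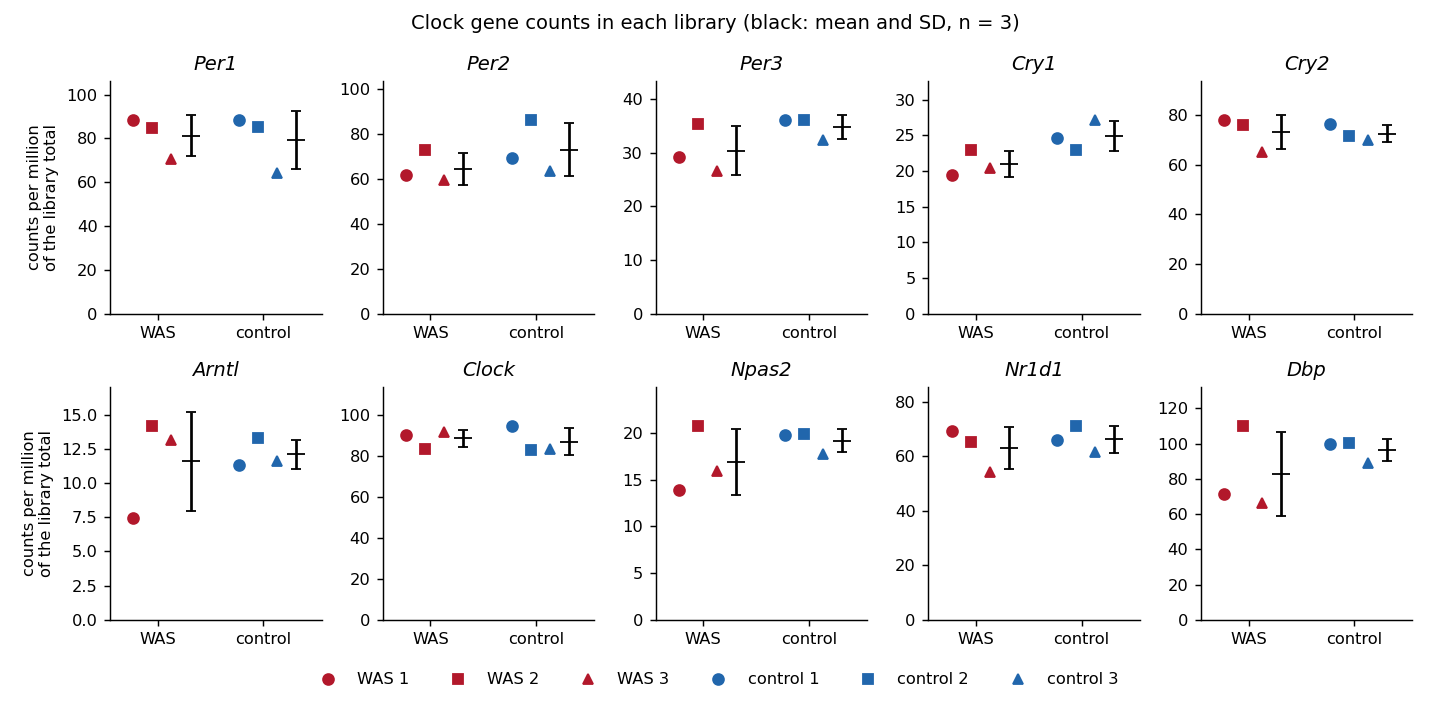
CPM of each clock gene in the 3 libraries labelled WAS (red) and the 3 labelled control (blue), with the mean and SD of each group in black; every axis starts at 0. Only for Cry1 did the groups not overlap, and in WAS replicates 1 and 3 the level of Dbp was below all other libraries.

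Among the Period genes, which encode the main repressors of the loop, Per1 was measured at 88.4, 84.6 and 70.5 CPM in WAS and at 88.5, 85.3 and 64.1 CPM in control, each time in the order of replicates 1, 2 and 3. Replicates 1 and 2 were high and replicate 3 was low in each group, and the groups overlapped, with the lowest level in control replicate 3. The mean was 81.2 ± 9.42 CPM in WAS and 79.3 ± 13.2 CPM in control (SD, n = 3 each), with a log2 fold change of -0.0023 (with its standard error, SE, of 0.13) and a 95% interval of the fold change from 0.822 to 1.21. A change of Per1 as large as 1.5-fold in either direction lay outside this interval.

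Per2, the partner of Per1 in the repressor complex, was at 61.6, 72.8 and 59.5 CPM in WAS and at 69.4, 86.4 and 63.5 CPM in control. Control replicate 2 was the highest and WAS replicate 3 the lowest, and the groups overlapped. Its log2 fold change was -0.22 (SE 0.13, edgeR adjusted p = 0.775), and -0.077 without control replicate 2. Per3, which is dispensable for the core rhythm and whose promoter holds both D-boxes shown above, was at 29.2, 35.4 and 26.5 CPM in WAS and at 36.1, 36.1 and 32.3 CPM in control. WAS replicate 2 lay among the controls, and WAS replicates 1 and 3 lay below all of them. The log2 fold change of Per3 was -0.24 (SE 0.13, edgeR adjusted p = 0.738), and -0.15 without WAS replicate 3.

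Of the Cryptochrome genes, which encode the partners of the Period proteins, Cry1 came nearest to a difference. It was measured at 19.5, 22.9 and 20.4 CPM in WAS and at 24.6, 22.9 and 27.2 CPM in control. Each WAS library lay below each control library, although WAS replicate 2 and control replicate 2, with 212 and 238 counts, were equal to the third digit. This separation, lower in WAS, was found for 1 of 10 members and for 3.76% of all genes tested, and the opposite separation for 0 of 10 members and 8.42% of all genes. The mean of Cry1 was 20.9 ± 1.78 CPM in WAS against 24.9 ± 2.13 CPM in control (SD, n = 3 each), a log2 fold change of -0.29 (SE 0.13) with an unadjusted p of 0.0501 and an adjusted p of 0.686 by edgeR's test. The exact two-sided permutation p was 0.1, the smallest that 3 against 3 libraries can give. Cry2 was at 78.1, 76.1 and 65.2 CPM in WAS and at 76.3, 71.5 and 69.8 CPM in control. Here the control libraries fell inside the range of the WAS libraries, the log2 fold change was -0.024 (SE 0.096), and the interval of the fold change ran from 0.85 to 1.14. The promoters of Cry1 and Cry2 both hold the E′-box letters shown above, and neither gene passed the test.

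None of the activators of the loop passed the test. Arntl had 75, 131 and 131 counts in WAS and 119, 138 and 116 in control, or 7.45, 14.2 and 13.1 CPM against 11.3, 13.3 and 11.6 CPM. WAS replicate 1 was the lowest of the 6 libraries and WAS replicate 2 the highest, so that the SD in WAS was 31.2% of the mean against 8.76% in control. The log2 fold change of Arntl was -0.10 (SE 0.23), and without WAS replicate 1 it was 0.14. Clock, which encodes the histone acetyltransferase partner of BMAL1, was the steadiest member. It was at 90.6, 83.8 and 91.9 CPM in WAS and at 94.8, 83.2 and 83.5 CPM in control, and its highest library exceeded its lowest by a factor of 1.14. Its log2 fold change was -0.011 (SE 0.088).

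Npas2, which takes the place of Clock in much of the forebrain, varied more. It was at 13.9, 20.8 and 15.9 CPM in WAS and at 19.8, 19.9 and 17.7 CPM in control. WAS replicates 1 and 3 were below all controls and WAS replicate 2 was above them, and the log2 fold change was -0.22 (SE 0.16, edgeR adjusted p = 0.845), and -0.10 without WAS replicate 1.

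Nr1d1, whose product REV-ERBα represses Arntl, was at 69.2, 65.2 and 54.4 CPM in WAS and at 65.8, 71.1 and 61.5 CPM in control. WAS replicate 3 was the lowest library and control replicate 2 the highest. The log2 fold change of Nr1d1 was -0.11 (SE 0.11), with an interval of the fold change from 0.785 to 1.10, and without WAS replicate 3 it was -0.014.

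Dbp, the output factor of the loop and a PAR bZIP transcription factor, varied widely between the WAS mice. The WAS libraries had 719, 1018 and 663 counts of Dbp and the control libraries 1047, 1042 and 888, or 71.4, 110.1 and 66.4 CPM against 99.7, 100.4 and 89.0 CPM. WAS replicate 2 had the highest level of all 6 libraries and WAS replicates 1 and 3 the lowest. The mean was 82.6 ± 23.9 CPM in WAS and 96.4 ± 6.38 CPM in control (SD, n = 3 each). The log2 fold change was -0.26 (SE 0.16, edgeR adjusted p = 0.799). Leaving out WAS replicate 1 gave -0.17 for Dbp, and leaving out WAS replicate 3 gave -0.13. An SD of 28.9% of the mean in WAS stood against 6.63% in control and against 3.34% from counting alone.

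**Figure D2:**
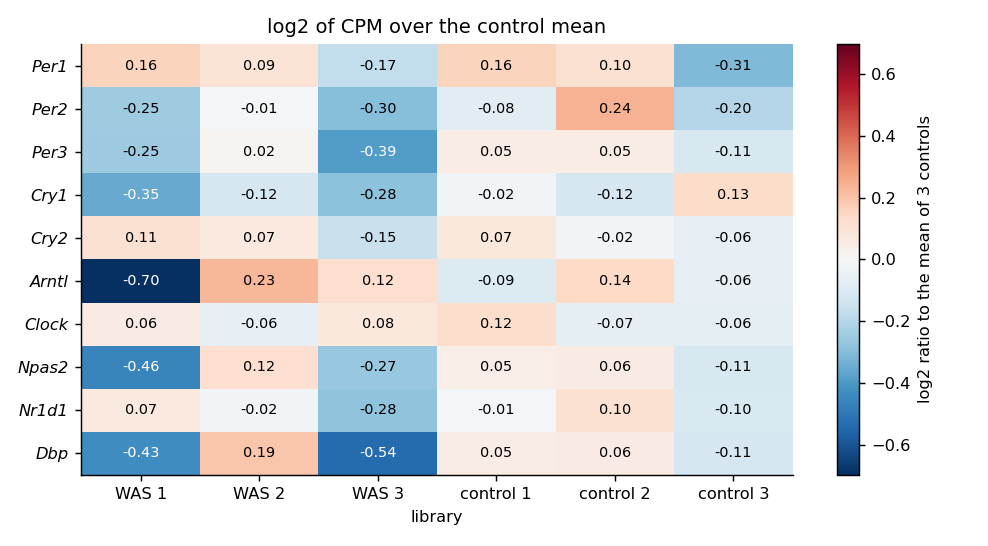
Log2 of the CPM in each library over the mean of the 3 control libraries, for the 10 clock genes; blue is below and red above the control mean, and the number is the log2 ratio. WAS replicates 1 and 3 are below every control library for 6 and 7 genes, and WAS replicate 2 for 1 gene.

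The 3 libraries labelled WAS were not alike in the clock genes. WAS replicate 1 was below every control library for 6 members (Per2, Per3, Cry1, Arntl, Npas2 and Dbp) and WAS replicate 3 for 7 (Per2, Per3, Cry1, Cry2, Npas2, Nr1d1 and Dbp), while WAS replicate 2 was so for Cry1 alone. Of all genes tested, 26.2%, 24.1% and 19.7% were below every control library in WAS replicates 1, 3 and 2. The median log2 ratio of the members to the control mean was -0.25 in WAS replicate 1, 0.046 in WAS replicate 2 and -0.28 in WAS replicate 3. The results therefore depended on WAS replicate 2. Without it, 5 of 10 members had an unadjusted p under 0.05 and were lower in WAS (Per2, Per3, Cry1, Npas2 and Dbp), where 7.06% of all genes passed in that direction. Dbp then passed the adjusted threshold by edgeR's test, as 1 of 10 members, where 3.22% of all genes did: its log2 fold change was -0.52 with an adjusted p of 0.00952, the lowest over its alternatives, which reached 0.9997. The log2 fold changes of Per2, Per3, Cry1 and Npas2 without WAS replicate 2 were -0.31, -0.36, -0.36 and -0.40, with adjusted p between 0.195 and 0.291.

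The 2 libraries that gave these lower values were those with low striatal and high thalamic markers. With both left out, a choice made after seeing the data, WAS replicate 2 alone was compared with the 3 controls on the assumption that it varied like them. In that fit 5 of 10 members were below 0, where the median log2 fold change over all genes tested was -0.0042. The log2 fold changes were 0.15 for Dbp, 0.075 for Npas2, 0.19 for Arntl, -0.018 for Per3, -0.047 for Per2 and -0.16 for Cry1. WAS replicate 2 had the highest striatal markers of all 6 libraries as well as the highest Dbp, Npas2 and Arntl. The part of regional content in the values of the clock genes was not tested.

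**Figure D3:**
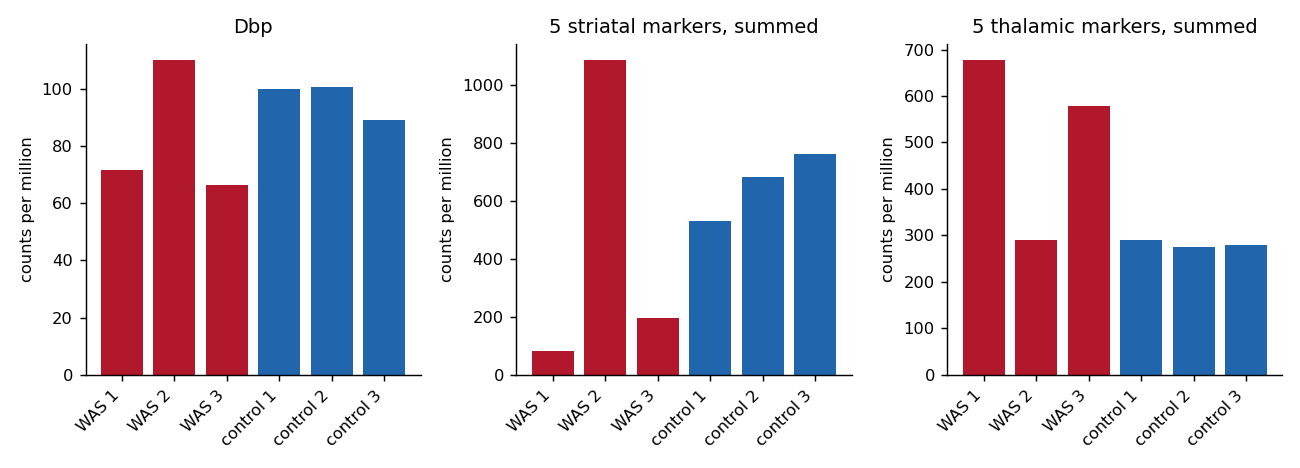
CPM of Dbp (left), the summed CPM of 5 striatal markers (middle) and of 5 thalamic markers (right) in each library, with libraries labelled WAS in red and control in blue; bars start at 0. WAS replicates 1 and 3 are lowest for Dbp and the striatal sum and highest for the thalamic sum.

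**Figure D4:**
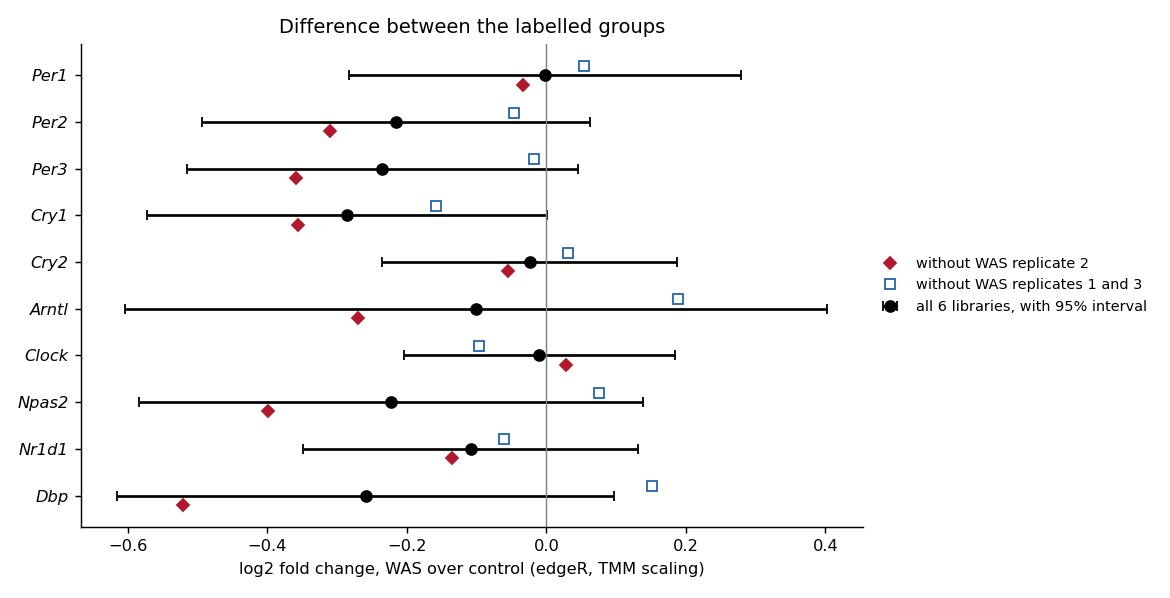
Log2 fold change of each clock gene, WAS over control, in all 6 libraries (black, with the 95% interval), without WAS replicate 2 (red diamonds) and without WAS replicates 1 and 3 (open squares). All 10 intervals include 0, and for Dbp, Npas2, Arntl, Per1, Cry2 and Clock the red and open symbols lie on opposite sides of 0.

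The counts of Dbp and Nr1d1 carry a limit of their own, since both genes end inside another gene on the opposite strand. In the GENCODE M21 annotation of GRCm38, the build named in the submitters' processing notes as mm10, Dbp lies on the plus strand at chr7:45705088-45710203 and shares up to 539 exon bases at its end with Sphk2, the sphingosine kinase 2 gene on the minus strand. Nr1d1 lies on the minus strand at chr11:98767932-98775333 and shares up to 263 exon bases at its end with Thra, the thyroid hormone receptor alpha gene on the plus strand. None of the other 8 members had another gene's exon in its last 500 bases. Of these, Per1 (chr11:69095217-69109960), Arntl (chr7:113207465-113314126) and Npas2 (chr1:39193731-39363236) lie on the plus strand. Per2 (chr1:91415982-91459324), Per3 (chr4:151003652-151044665), Cry1 (chr10:85131700-85185064), Cry2 (chr2:92403646-92434043) and Clock (chr5:76209868-76304792) lie on the minus strand. Whether counting used the strand is not given in the sources used here, and without it reads of such a pair cannot be told apart. Sphk2 had 932, 1206 and 884 counts in WAS and 1242, 1223 and 1064 in control, a log2 fold change of -0.17 (SE 0.13). It followed Dbp from library to library, with between 0.75 and 0.852 counts of Dbp for each count of Sphk2. Across the 6 libraries, Pearson's r of the log2 CPM was 0.995 (exact permutation p = 0.00556, adjusted over both pairs 0.0111) and Spearman's rho 0.943 (exact permutation p = 0.0167, adjusted 0.0334). Without WAS replicates 1 and 3, which lay farthest from the median of Dbp, r was 0.997. Of 9399 other genes with a mean of at least 10 CPM, Sphk2 was the most like Dbp over the 6 libraries. Thra, with 1302, 1103 and 1228 counts in WAS and 1362, 1371 and 1260 in control, followed Nr1d1 less closely, with r of 0.574 (exact permutation p = 0.267, adjusted 0.267), rho of 0.771 (exact permutation p = 0.103, adjusted 0.103) and an r of 0.301 without WAS replicate 3 and control replicate 2.

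**Figure D5:**
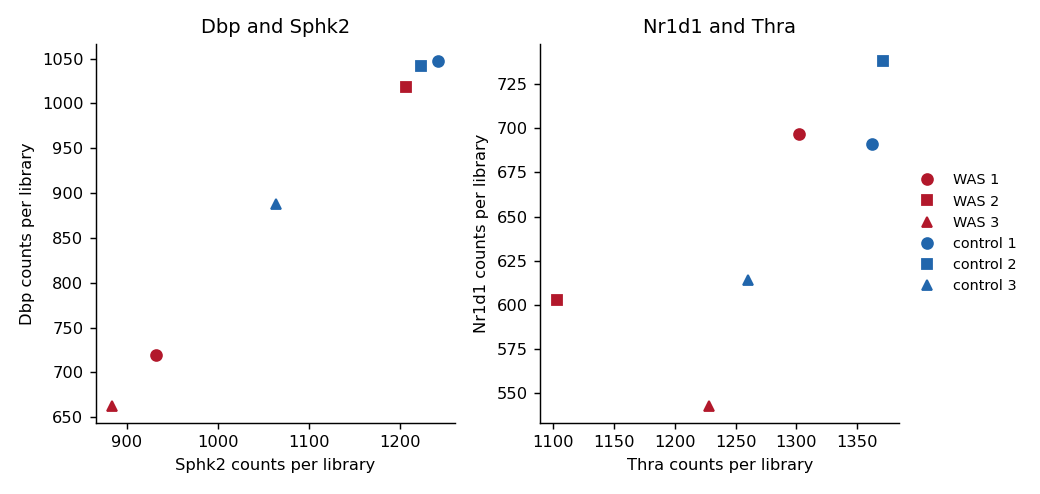
Raw counts of Dbp against Sphk2 (left) and of Nr1d1 against Thra (right), 1 point per library, red for WAS and blue for control; axes do not start at 0. The Dbp and Sphk2 points follow a line through all 6 libraries, and the Nr1d1 and Thra points scatter.

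The other genes with the closest pattern were Rbm26 and Speg for Dbp (r = 0.993 each), Txlna, Pgr and 2510002D24Rik for Nr1d1 (r = 0.995, 0.99 and 0.987), Ptprs, Ubp1 and Kdm1a for Per1 (r = 0.992, 0.991 and 0.989), and Tceb1 and Gramd4 for Arntl (r = 0.995 and 0.994). Each r is a description over 6 libraries of the highest values among 9399 genes, a number at which high values arise readily: 83 genes had an r over 0.95 to Dbp, 19 to Nr1d1, 23 to Per1 and 114 to Arntl. For these 4 members, no other clock gene was among the 3 closest.

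Pairs of members that cycle together or in opposite phase were compared across the 6 mice. Arntl and Npas2 had the highest Pearson's r, 0.767 (exact permutation p = 0.136), with a Spearman's rho of 0.771 (exact permutation p = 0.103), but r was -0.268 without WAS replicates 1 and 2, so that the relation rested on those libraries. Dbp and Nr1d1, which peak close to each other in the known cycle, had an r of 0.516 (exact permutation p = 0.331) and Dbp and Arntl, which peak in opposite phase, an r of 0.498 (exact permutation p = 0.406). For Dbp and Arntl, r became 0.0918 when WAS replicate 1 was left out and 0.955 when WAS replicate 3 was. All 6 pairs had an adjusted exact permutation p of 0.593 or more by Pearson's r and 0.618 or more by Spearman's rho. The log2 ratio of Dbp to Arntl counts was 3.26, 2.96 and 2.34 in WAS and 3.14, 2.92 and 2.94 in control. That of Nr1d1 to Arntl was 3.22, 2.20 and 2.05 in WAS and 2.54, 2.42 and 2.40 in control. Both ratios were close together in the controls, with SDs of 0.122 and 0.0732, and wider in WAS, with SDs of 0.470 and 0.633, where the low Arntl count of replicate 1 gave the highest ratio. No test was made of these ratios.

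Beyond the 10 members, 12 further transcription factors and repressors of the clock were all tested. Of these, 1 was lower in WAS at an unadjusted p under 0.05, where 3.4% of all genes were, 0 were higher, where 3.85% were, and 0 passed the adjusted threshold, with a median log2 fold change of -0.11. The gene was Hlf, a PAR bZIP factor related to Dbp, at 289, 373 and 317 CPM in WAS and 384, 423 and 354 CPM in control. The control range and WAS replicate 2 overlapped, and the log2 fold change of Hlf was -0.28 (SE 0.11, edgeR adjusted p = 0.625). Its unadjusted p was over 0.05 in 5 of 15 alternatives, among them limma and the fits that left out control replicate 2 or either of WAS replicates 1 and 3. Tef, the remaining PAR bZIP factor, was at 401, 427 and 376 CPM against 427, 444 and 450 CPM, with a log2 fold change of -0.17 (SE 0.082, edgeR adjusted p = 0.702). The Rev-erb relative Nr1d2 was at 135, 149 and 120 CPM in WAS and 139, 146 and 126 CPM in control. An unadjusted p of 0.05 was passed by 7.24% of all genes. Of 11 tested kinases, phosphatases and ubiquitin ligases that act on clock proteins and 8 co-regulators, 0 passed it. Among the former, Gsk3b, a kinase of several clock proteins, and the deubiquitinase gene Usp7 had log2 fold changes of 0.022 and -0.016 (SE 0.083 and 0.075). Among the co-regulators, Ncor1, the corepressor that REV-ERBα recruits, and the histone methyltransferase gene Kmt2a had log2 fold changes of -0.047 and -0.15 (SE 0.077 and 0.080).

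Of 14 tested output genes that the clock is known to drive, Hlf and Tef among them, 3 were lower in WAS at an unadjusted p under 0.05, beside the same 3.4% of all genes, 0 were higher, and the median was -0.052. Besides Hlf these were the Krüppel-like factor genes Klf9 and Klf10. Klf10 was at 24.8, 45.2 and 32.6 CPM in WAS and at 54.5, 66.1 and 36.3 CPM in control, a log2 fold change of -0.65 (SE 0.23, edgeR adjusted p = 0.585). Klf9 was at 777, 908 and 684 CPM in WAS and at 979, 991 and 809 CPM in control, a log2 fold change of -0.27 (SE 0.11, edgeR adjusted p = 0.667), and -0.17 without WAS replicate 3. The unadjusted p was over 0.05 in 4 of 15 alternatives for Klf10, among them limma and the fits without WAS replicate 1 or control replicate 2. For Klf9 it was so in 9 of 15, among them both scalings to total counts, edgeR's exact test, limma and the fits that left out any one of WAS replicates 1 and 3 and control replicates 1 and 2. As with Dbp, WAS replicates 1 and 3 were the lowest libraries for Hlf, Klf9 and Klf10. Without WAS replicate 2, Hlf and Klf10 passed the adjusted threshold by edgeR's test, with adjusted p of 0.0375 and 0.0230 that were the lowest over their alternatives and reached 0.9997 in each case.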

How the data were processed

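Forebrain RNA of 6 mice, 3 labelled WAS and 3 labelled control, was sequenced from the transcript ends (QuantSeq 3′ kit, 75 bp reads). The authors used Bowtie2 for alignment and the coverage tool of Bedtools for counting, in which multiple alignments were kept beside unique ones. The processing notes name mm10, and versions, annotation and strand setting are not given in the sources used here. The deposited counts are whole numbers before normalization. Of the symbols, 44 repeat, none of them a clock gene.

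Counts were scaled by TMM and tested with edgeR 4.0.16 (quasi-likelihood test, R 4.3.3) over genes with a mean log2(quantile-normalized count + 1) of at least 2. P-values were adjusted by Benjamini and Hochberg over all 15239 genes. Standard errors are the log2 fold change over the square root of F. Levels are CPM (counts per 1000000 of the library total), of which the ribosomal gene Rn45s took 4.96% to 7.32%. The test was checked on simulated data. Correlations used log2(CPM + 1) and exact two-sided permutation tests (scipy 1.17.1). Replicates are separate mice by their labels. Promoter sequences are RefSeq's, GRCm38.p6.

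The members, lists and tests were chosen with earlier results of these data known. Named genes are the members, the genes of each list with an unadjusted p under 0.05 or the 2 highest levels, and the 3 genes most like Dbp, Nr1d1, Per1 and Arntl, of which 1 is not reported here. Nr1d2, Fkbp5, Cirbp and Rbm3 fall outside this rule and were chosen after their values were seen, and Thra was taken for its overlap with Nr1d1. Region and cell type markers are also outside the rule. Those named singly were chosen after their values were seen. Alternatives were total counts with and without Rn45s, DESeq2 1.42.0, edgeR's exact test, limma 3.58.1 on quantile-normalized log2 counts, other filters, a replicate block, and each library left out. No use of molecular identifiers is stated, so counting error is a lower limit of the technical error.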

Additional observations from a re-analysis of the deposited data

How the results depend on the processing

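The count of clock genes at an adjusted p under 0.05 was 0 in every setting but the fit without WAS replicate 2 (range 0 to 1 with each library left out). At an unadjusted p under 0.05 the count was 0 under other scalings, DESeq2, edgeR's exact test, limma and other filters, and 0 to 5 with each library left out. With the replicate number as a block it was 2, Per2 and Dbp, where 9.37% of all genes passed, and 0 at the adjusted threshold. The main fit did not take the replicate numbers as pairs, and the labels do not state pairing. Same-numbered libraries deviated together with r of 0.0878, 0.115 and 0.102, and the other combinations had r between -0.0985 and -0.00701. Each library correlated best with its own number, a hint from the data alone, and the block moved the calls over all genes at an adjusted p under 0.05 from 0 to 49. DESeq2 and edgeR's exact test called 22 and 31 of all genes at that threshold. The count of clock genes with separated groups was 1 to 5 with each library left out, where 19.6% to 30.1% of all genes were separated in either direction, and 4 without WAS replicates 1 and 3, where 51.8% were.

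Signs near 0 turned around. Per1 was 0.033 with total counts, 0.031 without Rn45s, 0.014 with limma, 0.0035 with the block and 0.053 without WAS replicates 1 and 3 (-0.13 to 0.089 with each library left out). Clock was 0.026, 0.022 and 0.0051 in the first 3 of these settings (-0.042 to 0.044), and Cry2 was 0.012 and 0.0086 with total counts and without Rn45s and 0.030 without WAS replicates 1 and 3 (-0.077 to 0.051). Without WAS replicates 1 and 3, Arntl was 0.19 (-0.27 to 0.14 with each library left out), Npas2 0.075 and Dbp 0.15. Correlations ranged with each library left out from -0.166 to 0.883 for Dbp and Nr1d1, -0.587 to 0.0456 for Nr1d1 and Arntl, and -0.728 to 0.386 for Cry1 and Cry2, whose r was 0.11 on TMM-scaled values. The r of Arntl and Npas2 ranged from 0.18 to 0.956. Mt1 and Mt2 had an unadjusted p over 0.05 in 7 and 6 of 15 alternatives: both in edgeR's exact test, in limma, without WAS replicate 1, without control replicate 2 and without WAS replicates 1 and 3, Mt1 also without WAS replicate 3 or control replicate 1, and Mt2 also without control replicate 3. The cause was not tested. Per2, Per3, Cry1 and Nr1d1 were below 0 in every setting. Counting error was 3.34% to 9.19% of a level, and for Arntl and Npas2 it was as large as the spread between control mice.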

Other observations

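Genes known to respond to stress hormones or temperature, and genes of the cAMP and CREB route to Per1, were looked at beside the clock. Of 14 glucocorticoid-induced genes tested, 2 were higher in WAS at an unadjusted p under 0.05, where 3.85% of all genes were, 1 was lower, where 3.4% were, and 0 passed the adjusted threshold, with a median log2 fold change of 0.076. The metallothionein genes Mt1 and Mt2 were the higher ones, each with all WAS libraries above all controls, as in 8.42% of all genes and in Mt2 by 340.4 against 339.5 CPM: Mt1 was at 709, 600.2 and 653 CPM against 556, 520 and 576 CPM (log2 fold change 0.21, SE 0.087, edgeR adjusted p = 0.650), and Mt2 at 422, 340.4 and 344 CPM against 339.5, 301 and 279.9 CPM (0.23, SE 0.10, edgeR adjusted p = 0.686). Without WAS replicate 1 the log2 fold change was 0.12 for Mt2 and 0.15 for Mt1. The lower one was Klf9, which is also a clock output gene. Fkbp5, a standard glucocorticoid target, was at 33.6, 35.8 and 32.4 CPM in WAS and 26.3, 32.6 and 29.3 CPM in control, with overlapping groups and a log2 fold change of 0.17 (SE 0.12).

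An unadjusted p of 0.05 was passed by 7.24% of all genes. Of 9 genes of the cAMP and CREB route to Per1 and 8 temperature-responsive genes, 0 passed it. Their median log2 fold changes were -0.0067 and 0.064. On the CREB route, Adcyap1r1, the PACAP receptor gene, was at 179, 131 and 175 CPM in WAS and 124, 124 and 144 CPM in control (log2 fold change 0.27, SE 0.12, edgeR adjusted p = 0.688), and the log2 fold change of Creb1 was 0.040 (SE 0.082). The chaperone genes Hsp90aa1 and Hspa8 had log2 fold changes of 0.060 and 0.033 (SE 0.089 and 0.090). Cirbp, a cold-inducible RNA-binding protein gene, was at 75.1, 69.5 and 67.7 CPM in WAS and 59.5, 54.4 and 65.5 CPM in control. Its groups were separated, like the 8.42% of all genes above, with a log2 fold change of 0.21 and an SE of 0.10. Rbm3, of the same list, had overlapping groups with means of 29.8 CPM in WAS and 30.0 CPM in control. Its log2 fold change was -0.048 (SE 0.12).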
